A study of Mus musculus with 4 samples.

Results

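The genes described here are 85 chromatin modifier and remodeller genes of the mouse, measured by RNA sequencing in bone marrow-derived macrophages. They were chosen by name and by total count: protein-coding genes whose symbol starts with Hdac, Sirt, Kdm, Kmt, Setd, Kat, Brd or Chd and a digit, or with Smarc, with at least 100 counts summed over the 4 libraries. Kdm6a and Kdm6b were left out by name. Of 54532 genes in the count table, 22046 were protein coding, 91 had a matching name, 2 were left out by name and 4 fell short of the count minimum. The 4 below the minimum were Kdm4d, Smarca1, Chd5 and Smarcd3, with 8, 28, 46 and 68 counts in all. The 3 members nearest above it were Brd3os with 118, Hdac11 with 124 and Kdm8 with 195 counts. The members comprised 11 Hdac, 7 Sirt, 15 Kdm, 8 Kmt, 8 Setd, 8 Kat, 8 Brd, 9 Chd and 11 Smarc genes. All 85 passed both filters on low counts used below. Brd3os is a gene on the strand opposite Brd3 and belongs to the set by its symbol alone.

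The macrophages were grown for 6 days from femoral and tibial marrow of mice of the C57BL/6 strain at 6 to 8 weeks of age, in medium with 10% serum and 20% conditioned medium of L929 cells, which supplies macrophage colony-stimulating factor. All mice carried loxP-flanked Fbxw7 alleles (f/f). Going by the titles, the KO libraries combined these with LysM-cre, a Cre recombinase expressed from the lysozyme locus Lyz2 in cells of the myeloid lineage. The genotype tags disagree and place cre in both LPS libraries instead, as described below. The Fbxw7 protein picks the substrates of a ubiquitin ligase. Cells of each title stayed untreated or received lipopolysaccharide (LPS), a bacterial ligand of Toll-like receptor 4, for 3 h, at a dose that the sources used here do not state. Each of the 4 groups held 1 library, so a contrast of 2 libraries has no replicate error and is given with no p-value. How many mice stand behind each library is not stated.

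DNA in the nucleus is wound on histones, and the families of this set are known mostly for acting on that packaging. Some members act elsewhere, among them the mitochondrial Sirt3, Sirt4 and Sirt5, the mainly cytoplasmic Sirt2 and the actin histidine methyltransferase Setd3. The family roles that follow do not hold for every member. Lysine acetyltransferases (Kat genes) place acetyl groups on histone tails, histone deacetylases (Hdac) and the NAD-dependent sirtuins (Sirt) remove them, and bromodomain proteins (Brd) bind them. Lysine methyltransferases (Kmt and Setd) and demethylases (Kdm) write and erase methyl marks, some found at active and some at silent genes. The Chd and Smarc families encode mostly ATP-driven motors, and their partner subunits, that slide, eject or space nucleosomes. In macrophages, histone acetylation and bromodomain proteins are known to take part in switching on inflammatory genes after Toll-like receptor signalling, and deacetylase-containing corepressors in holding them silent at rest.

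The labels were checked first. Total counts ranged from 17610372 to 23835940 per library, and levels are given as normalized counts (CPM) after TMM normalization, a scaling that assumes most genes do not differ. A gene with 0 counts could have a level of up to 3 counts, or 0.108 to 0.184 CPM over the libraries. The genotype tags called both untreated libraries floxed and both LPS libraries cre-positive, which disagrees with the titles, and the groups here follow the titles. Fbxw7 was at 17.9 and 17.2 CPM in the untreated libraries titled WT and KO and at 9.90 and 11.7 CPM after LPS. It was thus only slightly lower in the KO title untreated, and higher in the KO title after LPS. Counts over a whole gene cannot show the loss of a floxed exon, so Fbxw7 does not check the titles. The lysozyme gene Lyz1 was high in the untreated library titled KO and the LPS library titled WT (32.9 and 33.1 CPM) and low in the other pair (2.86 and 2.63 CPM), against the titles. Lyz2, the locus that carries LysM-cre, paired the libraries in the same way with the opposite sign, at 15253, 8711, 9917 and 18238 CPM in the untreated WT, untreated KO, LPS WT and LPS KO titles, the order of all 4-value series here. All 8 macrophage markers were present, summing to between 15548 and 26890 CPM per library, whereas the marker lists of mast cells, erythroid cells, dendritic cells, fibroblasts, neutrophils, B cells and T cells each summed to at most 62.0 CPM. Of these, 4 lists were higher in both LPS libraries than in both untreated ones. They summed to 29.6, 36.2, 55.6 and 62.0 CPM for T cells, 1.77, 2.28, 13.2 and 9.36 CPM for dendritic cells, 0.272, 2.75, 4.13 and 3.55 CPM for mast cells and 1.27, 1.34, 1.46 and 3.18 CPM for fibroblasts. The T cell sum came mostly from Cd4. Lck, a kinase of the T cell list, was at 0.0454, 0.398, 3.09 and 6.00 CPM and rose by 4.55 ± 0.69 log2 units (edgeR adjusted p = 0.0192), while Cd3d, Cd3e and Cd3g were each at 0.181 CPM or less in every library. The dendritic cell sum after LPS came mostly from Xcr1, with Flt3 and Clec9a at 0.398 CPM or less. Zbtb46, of the same list, went the other way, at 0.862, 0.579, 0.0582 and 0.245 CPM. Clec9a was also lower in both LPS libraries than in both untreated ones. The part of these cells in the LPS results was not tested. Every statement about KO and WT below is about libraries with those titles. Titles and treatment tags gave the same treatment for each library. If the genotype tags are right, however, LPS and genotype cannot be told apart in any LPS effect below.

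The chromatin genes were expressed at moderate levels that spanned more than 2 orders of magnitude. On the FPKM scale, which divides by gene length and so allows genes to be compared, the mean over the 4 libraries ran from 0.227 for Hdac9 to 77.0 for Brd2, with a median of 4.90 FPKM over the 85 genes, near the 5.22 FPKM of the 12326 genes with a mean of at least 1 CPM. Brd2, a bromodomain protein of the BET group, was listed at 35.1, 47.3, 107 and 119 FPKM in the untreated WT, untreated KO, LPS-treated WT and LPS-treated KO libraries. Hdac1, a nuclear class I deacetylase found in several corepressor complexes, was at 24.4, 22.7, 45.4 and 52.2 FPKM. Both genes were higher in each LPS library than in either untreated library. Chd4, the ATPase of the NuRD complex, was at 30.2, 32.7, 38.6 and 40.4 FPKM, a range narrower than that of Brd2 or Hdac1. The mainly cytoplasmic deacetylase Sirt2 averaged 25.6 FPKM, and the BAF remodelling complex subunits Smarcc2 and Smarcd2 averaged 22.3 and 20.7 FPKM. In the remaining families the most abundant members were Kdm4a (16.6 FPKM), which removes H3K9 and H3K36 methylation, the actin histidine methyltransferase Setd3 (15.6 FPKM), the TIP60 acetyltransferase Kat5 (15.1 FPKM) and Kmt5a (10.6 FPKM), which adds the first methyl group to H4K20. The Kat5 value is uncertain because 12.1% of its exonic bases are shared with Rnaseh2c on the opposite strand, and the sources used here do not state whether counting used strand.

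After 3 h of LPS, 6 of the 85 genes rose and 8 fell in a test over all 4 libraries. Those that rose were Sirt1, Brd2, Setd1b, Chd1, Chd7 and Hdac1, and those that fell were Kmt5c, Hdac7, Hdac5, Kdm2b, Kdm5b, Kdm3a, Brd3 and Kat14. The test was edgeR's quasi-likelihood F test of treatment beside title, with Benjamini-Hochberg adjustment over 13989 genes at 0.05. With 1 residual degree of freedom, its spread is the departure of the 4 libraries from an additive pattern. Among all genes tested, 9.35% rose and 5.14% fell, or 14.5% in either direction, close to the 16.5% of the chromatin genes. The median LPS effect was -0.35 log2 units over the 85 genes and -0.05 over all genes tested. Estimates were below 0 for 57 of the 85 genes and for 7325 of the 13989 genes tested. When title was left out of the model, 12 of the 85 rose and 27 fell, beside 16.7% and 15.3% of all genes, and the 14 named genes were among them. Neither model separates LPS from the genotype given by the tags. The split between directions depends on the scaling: with plain library totals instead of TMM, 1 rose (Sirt1) and 39 fell, the median of all genes moved by -0.57 log2 units, and Brd2, Setd1b, Chd1, Chd7 and Hdac1 no longer passed. The share of all genes that fell with library totals is not given here, so the 39 are not a result about these genes. Directions below are therefore relative to the bulk of genes. In bulk RNA, less RNA of a gene per cell and fewer cells that express it cannot be told apart.

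**Figure D1:**
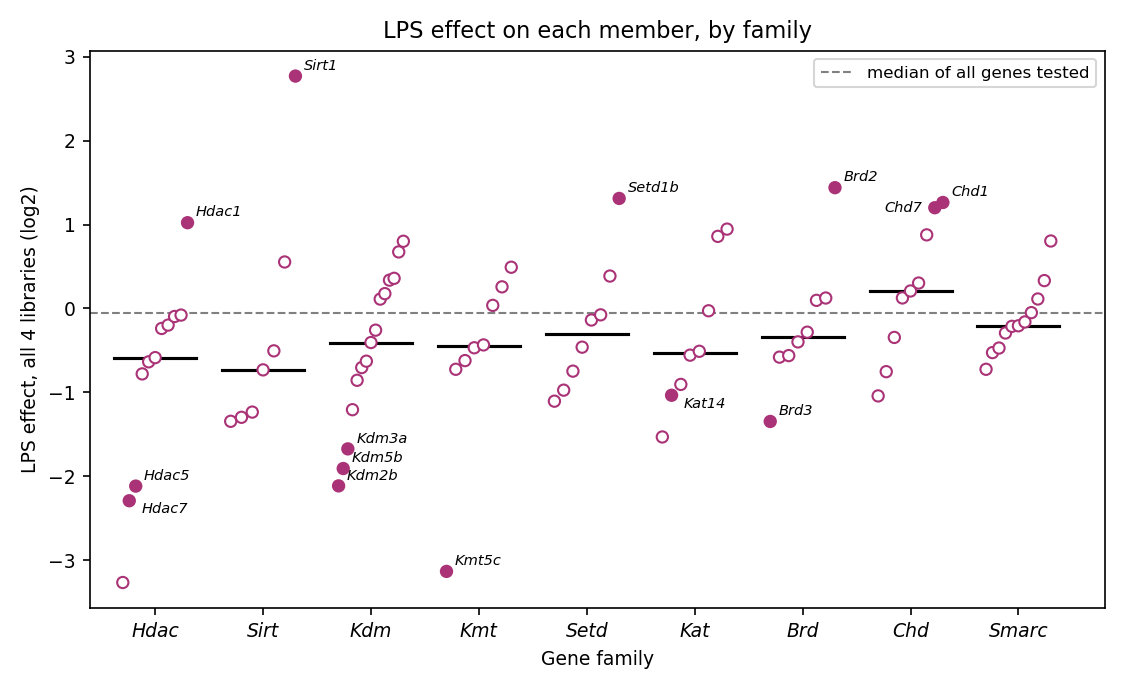
LPS effect on each of the 85 genes (log2, vertical axis, edgeR additive fit of all 4 libraries), grouped by family along the horizontal axis. Filled circles with names passed the test, open circles did not, black bars are family medians and the dashed line is the median of all genes tested (-0.05); the Chd median (0.21) is the only family median above that line, and with library totals it became -0.37.

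Promoter sequences of 3 genes are shown to set side by side the gene that rose most (Sirt1), the one that fell most among those past the test (Kmt5c) and a deacetylase gene that fell (Hdac5), which shares the E-box CACGTG with Sirt1. The windows run from 250 bases before to 50 bases after the start of the gene, 5′ to 3′ on the gene's own strand, and come from RefSeq on GRCm38.p6. Capitals mark exact matches on either strand to the E-box and to the GC box GGGCGG for Sirt1, to the CCAAT box (CCAAT) for Kmt5c, and to all 3 of these for Hdac5. The positions are chr10:63338986-63339285, minus strand, for Sirt1, chr7:4739877-4740176, plus strand, for Kmt5c, and chr11:102230123-102230422, minus strand, for Hdac5. The gene interval of the count table for Sirt1 reaches farther upstream than the RefSeq start used for its window.
Sirt1: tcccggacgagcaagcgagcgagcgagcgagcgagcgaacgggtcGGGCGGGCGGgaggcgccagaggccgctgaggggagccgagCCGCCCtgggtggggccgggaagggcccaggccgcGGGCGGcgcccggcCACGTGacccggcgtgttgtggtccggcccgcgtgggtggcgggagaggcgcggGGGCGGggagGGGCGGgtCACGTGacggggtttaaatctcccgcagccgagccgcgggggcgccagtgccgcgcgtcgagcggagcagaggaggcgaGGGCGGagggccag
Kmt5c: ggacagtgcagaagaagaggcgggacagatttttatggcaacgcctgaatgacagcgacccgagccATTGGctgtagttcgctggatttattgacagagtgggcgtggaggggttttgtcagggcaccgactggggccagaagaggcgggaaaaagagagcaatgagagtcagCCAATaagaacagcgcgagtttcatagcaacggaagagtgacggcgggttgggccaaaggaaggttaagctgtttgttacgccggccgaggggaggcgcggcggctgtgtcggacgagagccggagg
Hdac5: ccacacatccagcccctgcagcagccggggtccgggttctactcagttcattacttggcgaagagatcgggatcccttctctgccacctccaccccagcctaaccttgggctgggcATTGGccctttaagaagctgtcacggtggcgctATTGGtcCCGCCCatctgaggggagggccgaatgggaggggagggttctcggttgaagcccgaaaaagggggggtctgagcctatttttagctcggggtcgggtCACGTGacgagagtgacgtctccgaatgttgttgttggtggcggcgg
The Sirt1 window held 2 E-boxes and 7 GC boxes, 2 of which overlap each other by 2 bases. The Kmt5c window held 2 CCAAT boxes, and the Hdac5 window 1 E-box, 2 CCAAT boxes and 1 GC box. A window was given for 67 of the 85 genes, for 2 of the 6 that rose and for all 8 that fell. Where a gene had more than 1 window, only the first was searched. An E-box was found in 4.48% of the 67 windows and in 10.5% of the windows of 8868 protein-coding genes with a mean of at least 1 CPM. The CCAAT box was in 35.8 and 39.2%, and the GC box in 67.2 and 65.6%. The NF-kB motif, searched as GGG, any 2 bases, TT, any 1 base and CC, was in 5 of the 67 windows (7.46%, against 5.53% of all), the AP-1 motif TGANTCA also in 5 (7.46 against 5.02%), and the interferon-response motif, searched as GAAA, any 2 bases and GAAA, in 2 (2.99 against 3.42%). None of these 3 motifs was in the searched window of a gene that rose or fell, of those that had one. Brd2, Hdac7, Kdm2b and Kdm3a had 3, 4, 4 and 3 windows, of which those after the first were not searched. The cyclic AMP response element TGACGTCA was in none of the 67 windows and in 3.39% of all. The ETS motif CCGGAAGT was in 8.96 and 9.22%. The windows had a median GC content of 61.0% in both sets. A match describes these letters only, and its absence says nothing of a factor binding elsewhere.

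Among the acetyl erasers, 1 of the 7 sirtuins rose, while most of the others had lower values after LPS without passing the test. Sirt1 (ENSMUSG00000020063, chr10:63319005-63381704, minus strand), a nuclear NAD-dependent deacetylase whose known substrates include the NF-kB subunit p65, was at 16.8 and 24.6 CPM in the untreated libraries titled WT and KO and 121 and 151 CPM in the LPS libraries. Both LPS libraries lay above both untreated libraries, with no overlap. Sirt1 rose by 2.77 ± 0.22 log2 units (± here and below is the SE recovered from the F statistic; edgeR, adjusted p = 0.00609), the largest increase among the 85 genes. The ratio of normalized counts was 7.20-fold (6.45 to 8.07) in the libraries titled WT and 6.16-fold (5.65 to 6.71) in those titled KO, where the range is an exact 95% binomial interval of the counts and covers counting error only. Within the summed FPKM of the 7 sirtuins, a quantity that no scaling between libraries can move, Sirt1 made up 6.15, 7.81, 31.7 and 37.9%. Sirt2 was at 109, 103, 144 and 161 CPM, higher in both LPS libraries, but did not pass (adjusted p = 0.156).

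The 3 sirtuins of mitochondria lay on the other side. Sirt3, the main mitochondrial deacetylase, was at 7.35, 11.4, 3.96 and 3.61 CPM. Sirt4, a mitochondrial enzyme that restrains glutamine use, was at 6.39, 8.75, 3.78 and 2.14 CPM. Sirt5, which removes succinyl and related groups, was at 4.54, 6.26, 2.27 and 1.96 CPM. Each was lower in both LPS libraries than in both untreated ones, with effects of -1.24 ± 0.38, -1.35 ± 0.47 and -1.30 ± 0.43 log2 units, and none passed in the model with title (edgeR adjusted p = 0.0985, 0.125 and 0.112). All 3 passed when title was left out (0.0313, 0.0490 and 0.0306). Sirt3 shares 5.73 and 7.0% of its exonic bases with Psmd13 and Ric8a on the opposite strand, which adds uncertainty to its low counts. The nuclear Sirt6, a deacetylase of H3K9, and the nucleolar Sirt7 were at 16.9, 22.0, 15.4 and 11.4 CPM and 80.7, 99.8, 61.9 and 44.9 CPM, also lower after LPS in both titles without passing. None of the 7 sirtuins fell by the test, and their median effect was -0.73 log2 units.

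Of the 11 Hdac genes, 1 rose and 2 fell, with a median effect of -0.59 log2 units. Hdac1 (ENSMUSG00000028800, chr4:129516104-129542713, minus strand) was at 85.7 and 81.2 CPM in the untreated libraries titled WT and KO and 156 and 175 CPM in the LPS libraries, and rose by 1.02 ± 0.22 log2 units (edgeR adjusted p = 0.0442). Its close paralogue Hdac2 was at 39.6, 34.9, 33.4 and 34.5 CPM, with an effect of -0.10 ± 0.21 log2 units that did not pass, so the share of Hdac1 in the FPKM of the pair was 73.8, 75.1, 85.9 and 86.8%. The class IIa deacetylases, which shuttle between nucleus and cytoplasm and bind MEF2 transcription factors, held both genes that fell. Hdac5 (ENSMUSG00000008855, chr11:102194432-102230166, minus strand) was at 156 and 207 CPM in the untreated libraries titled WT and KO and 52.3 and 31.1 CPM in the LPS libraries and fell by 2.12 ± 0.34 log2 units (edgeR adjusted p = 0.0225). Hdac7 (ENSMUSG00000022475, chr15:97792664-97844502, minus strand) was at 16.8 and 25.4 CPM in the untreated libraries titled WT and KO and 5.07 and 3.30 CPM in the LPS libraries and fell by 2.29 ± 0.41 log2 units (edgeR adjusted p = 0.0282). In both genes the untreated library titled KO was the highest of the 4 and the LPS library titled KO the lowest. The other 2 class IIa genes did not pass: Hdac4 was at 20.8, 20.2, 14.0 and 11.9 CPM, and Hdac9 was at 4.13, 2.89, 2.97 and 3.43 CPM with untreated and LPS libraries overlapping. Hdac11, the lone class IV enzyme, had 60, 56, 2 and 6 counts and narrowly missed the threshold (effect -3.27 ± 0.76 log2 units, edgeR adjusted p = 0.0523). Its estimate was the lowest of the 85, and it rests on 2 and 6 reads after LPS. The class I genes Hdac3, the catalytic subunit of nuclear receptor corepressor complexes, and Hdac8, and the class IIb genes Hdac6 and Hdac10, had effects between -0.78 (Hdac6) and -0.20 (Hdac3) log2 units without passing.

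**Figure D2:**
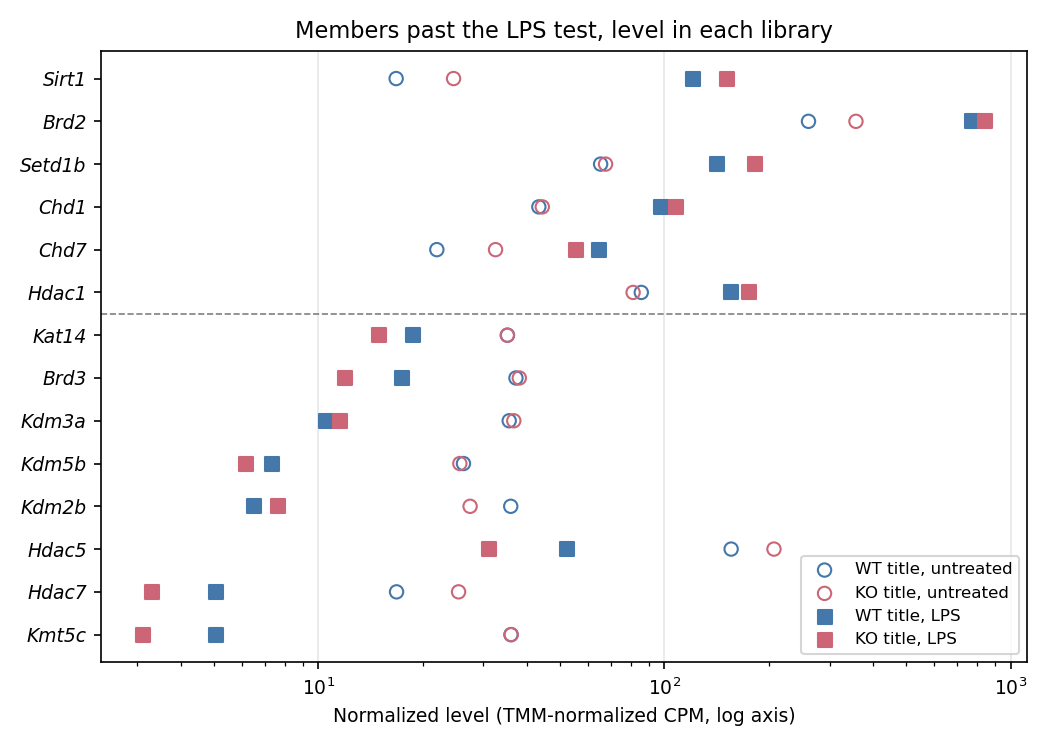
Level of the 14 genes past the LPS test in each of the 4 libraries, in TMM-normalized CPM on a log axis, where circles are untreated and squares LPS-treated libraries, blue for the WT and red for the KO title. The 6 genes above the dashed line rose and the 8 below fell; for example Sirt1 lay at 16.8 and 24.6 CPM untreated and at 121 and 151 CPM after LPS.

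Among the acetyl writers, Kat14 (ENSMUSG00000027425, chr2:144368983-144407676, plus strand), an acetyltransferase subunit of the ATAC coactivator complex, was at 35.2 and 35.1 CPM in the untreated libraries titled WT and KO and 18.7 and 14.9 CPM in the LPS libraries. It fell by 1.04 ± 0.23 log2 units (edgeR adjusted p = 0.0467), the call nearest the threshold, and it is the 1 call that was lost with DESeq2. Kat14 shares 14.7% of its exonic bases with Pet117 on the same strand, to which 0 counts were assigned. Kat6a, the MOZ acetyltransferase of histone H3, was at 83.3, 84.1, 143 and 153 CPM, higher in both LPS libraries, and just missed the threshold (adjusted p = 0.0586). Its paralogue Kat6b was at 17.4, 21.3, 9.32 and 4.47 CPM, in the opposite direction (adjusted p = 0.0765). Kat6a thus made up 89.8, 87.8, 96.6 and 98.4% of the FPKM of this pair. Kat2b, also known as PCAF and a subunit of SAGA-type and ATAC complexes, was at 30.0, 21.4, 36.6 and 61.9 CPM, whereas its paralogue Kat2a was at 40.5, 40.5, 27.7 and 27.7 CPM. The share of Kat2b in the pair was 34.6, 27.4, 48.5 and 61.5%, higher in both LPS libraries than in the untreated ones. Of the 8 Kat genes 0 rose and 1 fell, and the median effect was -0.53 log2 units.

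Among the acetyl readers, the BET proteins, which carry a pair of bromodomains and couple acetylated chromatin to transcription elongation, held 1 gene that rose and 1 that fell. Brd2 (ENSMUSG00000024335, chr17:34112023-34122634, minus strand) was at 261 and 358 CPM in the untreated libraries titled WT and KO and 773 and 844 CPM in the LPS libraries. It rose by 1.44 ± 0.28 log2 units (edgeR adjusted p = 0.0344), from the highest untreated FPKM of any of the 85 genes. Brd3 (ENSMUSG00000026918, chr2:27445579-27507662, minus strand) was at 37.2 and 38.1 CPM in the untreated libraries titled WT and KO and 17.4 and 11.9 CPM in the LPS libraries and fell by 1.35 ± 0.25 log2 units (edgeR adjusted p = 0.0316). Within the summed FPKM of Brd2 and Brd3, Brd2 made up 87.6, 90.4, 97.8 and 98.6%, a share that does not depend on the scaling between libraries. The non-BET readers Brd1, Brd7, Brd8 and Brd9, subunits of acetyltransferase or remodelling complexes, had effects between -0.56 (Brd8) and 0.12 (Brd9) log2 units and did not pass. The Brd family had 1 gene that rose, 1 that fell and a median effect of -0.34 log2 units. Its summed FPKM was 77.9, 87.9, 142 and 154, most of it from Brd2.

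**Figure D3:**
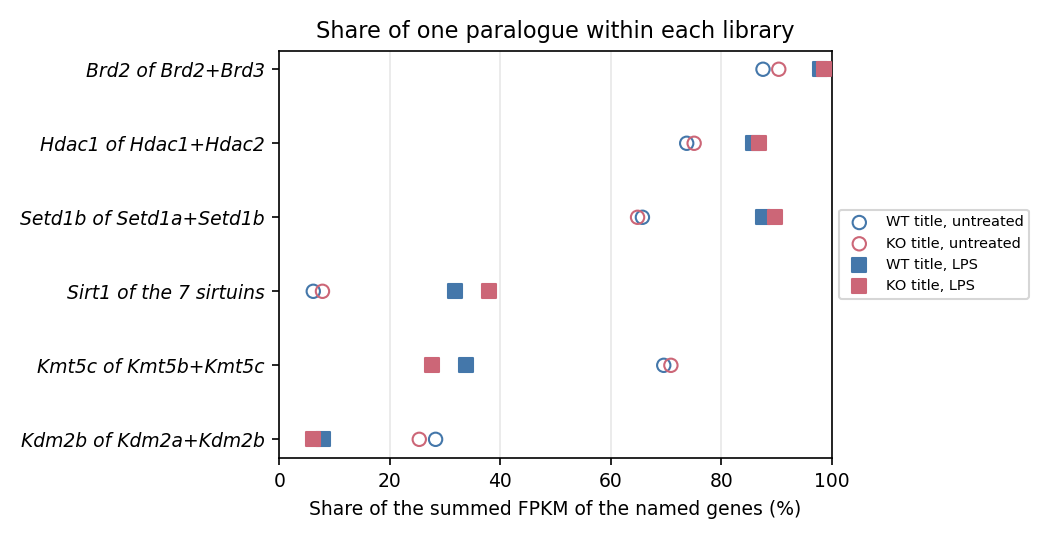
Share of 1 gene in the summed FPKM of its close paralogues (percent, horizontal axis) in each of the 4 libraries, where circles are untreated and squares LPS-treated libraries, blue for the WT and red for the KO title. In each of the 6 groups both LPS libraries lie on the same side of both untreated libraries. The Brd2 share, for example, was 97.8 and 98.6% after LPS against 87.6 and 90.4% untreated. The 6 groups were chosen after the values had been seen from 15 groups, of which 13 had this property. Those 15 were themselves picked with the values known, many around genes past the LPS test. By level rather than share, 34.6% of all genes had both LPS libraries above both untreated ones, and 38.1% below.

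The LPS and untreated libraries overlapped in the other 2 of the 15 groups. Chd4 made up 62.2, 69.2, 70.5 and 66.4% of the FPKM of Chd3 and Chd4, and Smarcc1 made up 25.6, 21.3, 18.1 and 25.1% of the FPKM of Smarcc1 and Smarcc2.

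The methyl writers contained the gene that fell most among those past the test. Kmt5c (ENSMUSG00000059851, chr7:4740115-4747514, plus strand), which carries H4K20 from mono- to di- and trimethylation in heterochromatin, was at 36.0 and 36.1 CPM in the untreated libraries titled WT and KO and 5.07 and 3.12 CPM in the LPS libraries. The untreated libraries agreed closely and both LPS libraries lay far below them. Kmt5c fell by 3.14 ± 0.31 log2 units (edgeR adjusted p = 0.00783). Relative to untreated cells it was 7.11-fold (5.69 to 8.98) lower in the WT title and 11.6-fold (8.73 to 15.6) lower in the KO title. Its paralogue Kmt5b was at 55.5, 52.2, 35.1 and 28.8 CPM and did not pass (adjusted p = 0.0754), and the share of Kmt5c in the FPKM of the pair was 69.6, 70.9, 33.8 and 27.7%. Kmt5a, which supplies their monomethylated substrate, was at 46.9, 48.2, 68.3 and 62.2 CPM, with an effect of 0.49 ± 0.20 log2 units that did not pass either. The MLL-type H3K4 methyltransferases Kmt2a, Kmt2b, Kmt2c and Kmt2d and the related reader Kmt2e had effects from -0.62 (Kmt2c) to 0.26 (Kmt2a) log2 units, and none passed. Of the 8 Kmt genes 0 rose and 1 fell (median -0.45).

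The H3K4 methyltransferase gene Setd1b (ENSMUSG00000038384, chr5:123142193-123168629, plus strand), the catalytic subunit of a COMPASS complex, was at 65.4 and 67.6 CPM in the untreated libraries titled WT and KO and 142 and 182 CPM in the LPS libraries. Setd1b rose by 1.31 ± 0.23 log2 units (edgeR adjusted p = 0.0255) and was the 1 of 8 Setd genes that passed (family median -0.30). Its paralogue Setd1a was at 19.2, 20.6, 11.4 and 11.7 CPM, lower in both LPS libraries without passing (adjusted p = 0.127). Setd1b made up 65.7, 64.9, 87.6 and 89.7% of the FPKM of the pair, although Setd1a shares 51.8% of its exonic bases with the overlapping gene Gm49388, to which 0 counts were assigned. Setd7, a monomethyltransferase of H3K4 and of other proteins, had the lowest effect in the family. It was at 49.8, 37.8, 16.4 and 23.5 CPM and did not pass (effect -1.11 ± 0.30 log2 units, adjusted p = 0.0740). Setd2, the enzyme that places H3K36 trimethylation, was at 76.1, 77.4, 62.4 and 47.3 CPM and did not pass.

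Among the methyl erasers, 3 of 15 Kdm genes fell, none rose and the median effect was -0.41 log2 units. Kdm2b (ENSMUSG00000029475, chr5:122870665-122989823, minus strand), an H3K36 demethylase that binds unmethylated CpG islands and anchors a variant Polycomb complex there, was at 36.0 and 27.4 CPM in the untreated libraries titled WT and KO and 6.52 and 7.65 CPM in the LPS libraries. It fell by 2.12 ± 0.30 log2 units (edgeR adjusted p = 0.0162). Kdm5b (ENSMUSG00000042207, chr1:134560171-134635285, plus strand), which removes H3K4 di- and trimethylation, was at 26.3 and 25.6 CPM in the untreated libraries titled WT and KO and 7.34 and 6.18 CPM in the LPS libraries and fell by 1.91 ± 0.27 log2 units (edgeR adjusted p = 0.0170). Kdm3a (ENSMUSG00000053470, chr6:71588972-71632990, minus strand), which removes H3K9 mono- and dimethylation, was at 35.6 and 36.7 CPM in the untreated libraries titled WT and KO and 10.5 and 11.6 CPM in the LPS libraries and fell by 1.67 ± 0.23 log2 units (edgeR adjusted p = 0.0159). In all 3 genes both LPS libraries were below both untreated libraries by more than 3-fold. Kdm2b shares 5.77% of its exonic bases with Rnf34 on the opposite strand. None of the paralogues passed. The share of Kdm2b in Kdm2a and Kdm2b was 28.3, 25.3, 7.91 and 6.09%, that of Kdm5b in the 4 Kdm5 genes was 7.80, 8.21, 1.85 and 1.33%, and that of Kdm3a in Kdm3a and Kdm3b was 37.9, 42.0, 23.6 and 27.2%. Kdm5c, the X-linked relative, was at 94.3, 80.8, 121 and 153 CPM (adjusted p = 0.138). Kdm5d, its near copy on the Y chromosome, was at 19.2, 17.4, 13.0 and 10.2 CPM, and reads of the 2 genes may not be fully separated. Kdm7a, which removes H3K9 and H3K27 dimethylation, had the highest effect in the family. It was at 71.9, 79.5, 159.8 and 103 CPM, above the untreated libraries in both titles, but did not pass (effect 0.80 ± 0.27 log2 units, adjusted p = 0.113). The flavin-dependent demethylase Kdm1a (LSD1) was at 33.3, 32.1, 36.6 and 32.5 CPM, with untreated and LPS libraries overlapping.

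The Chd remodellers were the 1 family with a median effect above 0 (0.21 log2 units, but -0.37 with library totals, where all families had a median below 0), with 2 of 9 genes that rose and 0 that fell. Chd1 (ENSMUSG00000023852, chr17:15704967-15772610, plus strand), which binds H3K4 trimethylation and spaces nucleosomes on transcribed genes, was at 43.4 and 44.4 CPM in the untreated libraries titled WT and KO and 97.8 and 108 CPM in the LPS libraries. It rose by 1.26 ± 0.21 log2 units (edgeR adjusted p = 0.0225). Chd7 (ENSMUSG00000041235, chr4:8690406-8867659, plus strand), an enhancer-bound remodeller, was at 22.0 and 32.5 CPM in the untreated libraries titled WT and KO and 64.8 and 55.6 CPM in the LPS libraries and rose by 1.20 ± 0.26 log2 units (edgeR adjusted p = 0.0455). Without the LPS library titled WT, and with treatment alone in the model because no residual degree of freedom would otherwise be left, Chd7 no longer passed. Chd2, the closest relative of Chd1, was at 49.0, 50.0, 80.0 and 98.3 CPM and narrowly missed the threshold (adjusted p = 0.0567), and 18.4% of its exonic bases are shared with 1810026B05Rik on the same strand. The NuRD ATPases Chd3 and Chd4 were at 158, 127, 136 and 168 CPM and 247, 272, 308 and 316 CPM. Chd1l, a remodeller activated by poly(ADP-ribose), had the lowest effect (-1.04 ± 0.35 log2 units, adjusted p = 0.111).

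None of the 11 Smarc genes passed, and their median effect was -0.21 log2 units. The largest estimates belonged to Smarca5, the ISWI ATPase SNF2H, at 66.5, 56.5, 95.9 and 114 CPM (adjusted p = 0.0860), and to Smarcal1, a fork-remodelling enzyme, at 24.9, 26.1, 16.3 and 13.9 CPM (adjusted p = 0.117). Smarca4, the BRG1 ATPase of BAF complexes, was at 109, 98.0, 103 and 116 CPM and its alternative Smarca2, BRM, at 42.0, 29.2, 17.6 and 31.7 CPM. Both had overlapping untreated and LPS values, and Smarca4 made up 85.2, 88.1, 92.8 and 89.0% of the FPKM of the pair. The core subunits Smarcb1, Smarce1 and Smarcc2 had effects of -0.16 ± 0.21, 0.33 ± 0.20 and -0.05 ± 0.21 log2 units. The summed FPKM of the Smarc family was 107, 99.3, 96.7 and 109.

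The response was then taken in each title separately. In libraries titled WT, 6 of the 85 genes were at least 2-fold higher after LPS and 12 at least 2-fold lower, with a counting interval that excluded no change. The shares over the 12326 genes with a mean of at least 1 CPM were 15.4% higher and 15.0% lower. In libraries titled KO, 7 genes were higher and 17 lower, beside 14.6% and 17.8% of all. Sirt1, Brd2, Chd1 and Setd1b were higher and Hdac11, Hdac7, Hdac5, Kdm2b, Kdm5b, Kdm3a, Kmt5c and Brd3 lower in both titles. These are 4 and 8 of 85 genes, against 10.4% and 8.9% of all. In the WT title, Chd7 was also higher, by 2.94-fold (2.64 to 3.28), and so was Kdm7a, by 2.22-fold (2.09 to 2.37), and Setd7, Chd1l, Setd4 and Smarca2 were also lower. In the KO title, Kat2b was also higher, by 2.89-fold (2.61 to 3.20), Hdac1 by 2.16-fold (2.04 to 2.28) and Smarca5 by 2.01-fold (1.88 to 2.15). Those also lower there were Kat6b, Kat14, Kat8, Kdm8, Chd6 and the sirtuins Sirt3, Sirt4, Sirt5 and Sirt7. Hdac11 was 23.4-fold (6.19 to 197) lower in the WT title, where its LPS library held 2 counts, and 5.52-fold (2.38 to 15.7) lower in the KO title.

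Taking order alone, both LPS libraries lay above both untreated libraries for 20 of the 85 genes and below them for 51, beside 34.6% and 38.1% of all genes. The remaining 14 genes overlapped. The sign of the log2 ratio was the same in both titles for 72 of 85 genes and for 75.5% of all. Across the 85 genes the log2 responses of the 2 titles had a Pearson r of 0.838 and a Spearman rho of 0.831 (0.741 and 0.667 over all genes), a description of genes that share libraries and normalization and are not independent. The authors' deposited comparisons use the same 4 libraries, 1 against 1. Their adjusted p-values therefore rest on no replicate error and are no separate support. In the authors' deposited table, 6 of the 85 genes were higher and 11 lower after LPS in the WT title at an adjusted p under 0.05, beside 9.94% and 8.3% of all genes. In the KO title that table had 6 higher and 17 lower, beside 9.05% and 10.2% of all.

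**Figure D4:**
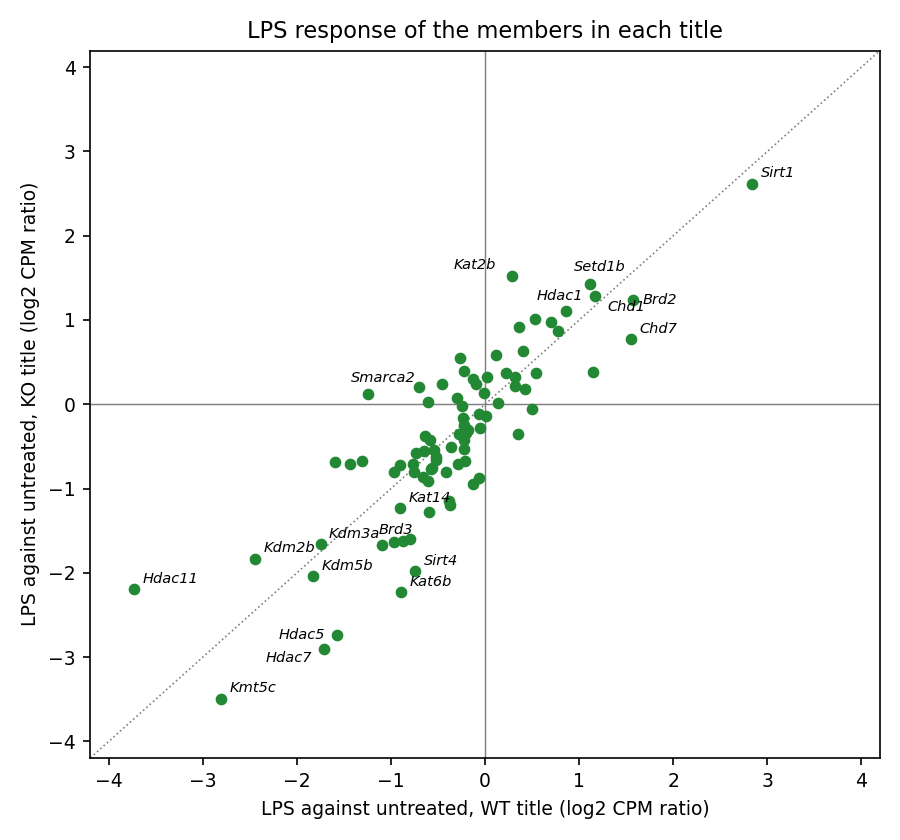
Log2 CPM ratio of LPS against untreated in the libraries titled WT (horizontal) and KO (vertical), 1 point for each of the 85 genes, with the diagonal of equal response dotted. Sirt1 is the highest point on both axes and Kmt5c the lowest on the vertical one, while Kat2b and Smarca2 lie above the diagonal and Kat6b, Sirt4, Hdac5 and Hdac7 below it.

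The difference of the 2 responses was at least 1 log2 unit, with a 95% Poisson interval excluding 0, for 6 of the 85 genes, beside 18.3% of all genes. It has no test, since no residual degree of freedom is left. The response was more positive in the KO title for Kat2b, by 1.24 log2 units (1.03 to 1.46), and for Smarca2, by 1.37 log2 units (1.12 to 1.61). It was more negative in the KO title for 4 genes, where the KO response minus the WT response was -1.35 log2 units (-1.79 to -0.91) for Kat6b, -1.26 log2 units (-1.92 to -0.60) for Sirt4, -1.21 log2 units (-1.73 to -0.69) for Hdac7 and -1.16 log2 units (-1.33 to -0.99) for Hdac5. In 5 of the 85 genes, and 10.4% of all, the response had opposite directions in the 2 titles with both counting intervals excluding no change. These were Chd3, Kdm2a, Kmt2b, Smarca4 and Smarcc1.

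Between titles, none of the 85 genes passed the additive edgeR test of KO against WT over both treatments, and 0% of the 13989 genes tested did. At an unadjusted p under 0.05, edgeR, DESeq2 and limma-voom each called 0 of the 85 genes, and 39, 33 and 62 of all genes. These were 0.279, 0.0605 and 0.443% of the genes given to each. A title difference that changes with treatment adds to the spread of these tests. Such differences were common, as described below, so the lack of calls does not show that the titles are alike. Between the untreated libraries, 0 of the 85 differed by 2-fold or more, beside 5.18% of all genes. The largest ratios were those of Sirt3, 1.55-fold (1.27 to 1.88) higher in KO, and of Smarca2, 1.44-fold (1.31 to 1.58) lower in KO. Between the LPS libraries, 1 of the 85 differed, beside 8.23% of all. This was Kat6b, the MORF acetyltransferase, with 384, 590, 160 and 73 counts, which was 2.09-fold (1.57 to 2.79) lower in KO after LPS. In the authors' deposited table, 0 of the 85 genes passed an adjusted p of 0.05 between titles in either treatment. Of all genes in that table, 0.651% were higher and 0.172% lower in KO untreated, and 0.634% higher and 0.961% lower after LPS.

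The sign of the difference between titles often changed with treatment. KO against WT went in opposite directions before and after LPS, with both counting intervals excluding no change, for 27 of the 85 genes, beside 30.7% of all genes. It went the same way for 3, beside 5.18% of all. Sirt1, at 16.8, 24.6, 121 and 151 CPM, was 1 of those 3 and higher in KO in both treatments. Hdac5, Hdac7, Sirt4, Sirt7 and Kat6b were higher in KO untreated and lower in KO after LPS, whereas Kat2b, Smarca2, Smarcc1 and Kdm2a were lower in KO untreated and higher after LPS. Across the 85 genes the 2 log2 ratios had a Pearson r of -0.595 and a Spearman rho of -0.594 (-0.607 and -0.532 over all genes), a description over genes that share libraries. A list of 20 cell cycle genes moved in the same pattern: it summed to 1532, 879, 1190.5 and 1714 CPM, with 13 of the 20 genes 2-fold lower in KO untreated and 12 of the 20 2-fold higher in KO after LPS. Lyz1 and Lyz2 paired the libraries in the same way. So did the neutrophil markers, which summed to 10.3, 33.5, 29.8 and 7.10 CPM, mostly from Mmp8 at 6.58, 29.4, 19.0 and 3.92 CPM, and the B cell gene Cd79b at 31.4, 17.0, 9.72 and 27.4 CPM. The part of any of these in the chromatin genes was not tested.

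**Figure D5:**
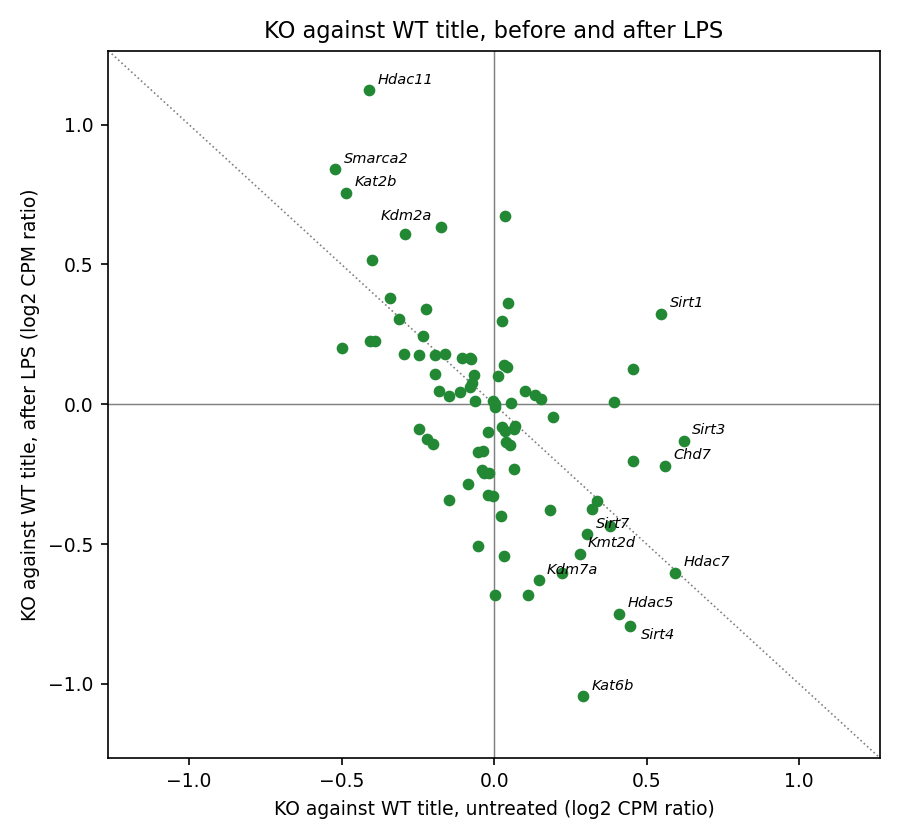
Log2 CPM ratio of KO against WT title in untreated (horizontal) and LPS-treated (vertical) cells, 1 point for each of the 85 genes, with the line of equal and opposite difference dotted. Names mark the genes whose LPS response differed between titles by at least 1 log2 unit, and some others picked by hand. A large difference of this kind places a gene toward the upper left or lower right, so the place of those names follows from the choice. Sirt1 lies at the upper right.

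Other chromatin genes, from lists of enzymes and complex partners drawn up with earlier results of these data known, were read from the same additive edgeR test. Of 17 other lysine methyltransferases, 2 rose and 4 fell (median -0.46 log2 units). Setdb2, a member of the SETDB family, was at 11.1, 10.5, 130.4 and 144 CPM and rose by 3.70 ± 0.23 log2 units (adjusted p = 0.00459), more than any of the 85 genes. Smyd4 was at 8.53, 9.62, 1.51 and 1.90 CPM and fell by 2.38 ± 0.39 log2 units (adjusted p = 0.0224). Of 9 other jumonji proteins, 2 rose and 0 fell, among them Jarid2, a partner of Polycomb complex 2, by 1.93 ± 0.28 log2 units (adjusted p = 0.0179), and Riox2 by 1.24 ± 0.21 (adjusted p = 0.0255). Of 19 other acetyl-lysine readers, 3 rose and 2 fell. Sp140 and Sp110, bromodomain proteins of nuclear bodies, rose by 3.22 ± 0.25 and 2.63 ± 0.24 log2 units (adjusted p = 0.00585 and 0.00663).

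Among the partner subunits, 0 rose and 1 fell of 16 tested BAF and PBAF subunits. The 1 that fell was Bcl7a, at 12.1, 6.51, 0.524 and 0.551 CPM. Of 30 subunits of deacetylase corepressors, 2 rose and 2 fell, led by the SIN3 subunit Sap30, which rose by 2.83 ± 0.22 log2 units (adjusted p = 0.00601). Mbd2, a reader of methylated DNA in the NuRD complex, rose by 1.30 ± 0.22 log2 units (adjusted p = 0.0242). Of 12 COMPASS subunits and partners 1 rose, Psip1. Of 19 genes of INO80, SRCAP, ISWI and other remodellers 4 rose and 3 fell, and among these Rsf1 had the largest effect and fell by 1.55 ± 0.23 log2 units (adjusted p = 0.0176). None of 8 arginine methyltransferases and none of 9 other lysine acetyltransferases passed.

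The chromatin genes were also long. Their median gene length in the table was 6949 bases, against 3933 over all genes tested, and 47 of the 85 were among the 3497 longest genes, of 6263 bases or more. When all genes were ranked by length into 4 groups, their median LPS effect was 0.15, -0.12, -0.16 and -0.08 log2 units from shortest to longest. The 47 chromatin genes among the longest had a median of -0.21. The part of length in the medians was not tested.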

How the data were processed

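RNA sequencing of poly(A)-selected RNA was analysed in 4 libraries of mouse bone marrow-derived macrophages. The submitters' processing notes name HISAT2 2.0.5 and the mm10 build for the authors' alignment. The authors' deposited table gave whole-number read counts and FPKM per gene and library, per the file headers, and the authors' deposited log2 fold changes, p-values and adjusted p-values for 4 comparisons. The sources used here do not state the counting program or its strand setting. A further 8 per-sample columns of the table stayed unused.

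Groups followed the sample titles. Counts were fitted with edgeR 4.0.16 (TMM, filterByExpr, quasi-likelihood F test of treatment and title, Benjamini-Hochberg over all genes at 0.05), on R 4.3.3, with DESeq2 1.42.0 and limma-voom (limma 3.58.1) as alternatives. Pairs of libraries were compared by size: a mean of at least 1 CPM, 2-fold or more on log2 CPM with a prior count of 2, and an exact 95% binomial interval excluding no change. No prior enters the folds printed. Intervals and the level of 3 counts cover counting error only. FPKM served for comparisons between genes. Scripts were tested on simulated data. The members and lists were chosen with earlier results of these data known. Named genes were every member past the test, members past the size rule with up to 6 of largest ratio in each direction, and the highest, most increased and most decreased member of each family; the paralogue groups, the other members named for their role and the promoter windows were chosen after their values were seen. The results of 2 genes are not reported here. Python 3.11.15 with pandas 2.3.3 was used. Gene positions were those of the table, and 83 of the 85 had the same position in GENCODE M21.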

Additional observations from a re-analysis of the deposited data

Results flagged for a closer look

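In 5 of the 85 genes (5.88%) the LPS response went in opposite directions in the 2 titles, with both 95% counting intervals excluding no change. The share was higher, 10.4%, over all genes with a mean of at least 1 CPM. With 1 library in each group the difference was not tested. The difference of the log2 response, KO title minus WT title, was 0.619 for Chd3, which was 0.858 times its untreated level after LPS in the WT title and 1.32 times in the KO title. For Kdm2a it was 0.809, from 0.833 times in the WT title to 1.46 times in the KO title. For Smarcc1, a scaffold subunit of BAF complexes, it was 0.900, from 0.615 to 1.15 times. For Smarca4 it was 0.339, from 0.938 to 1.19 times. For Kmt2b, an MLL-type H3K4 methyltransferase, it was -0.696, from 1.27 times in the WT title to 0.786 times in the KO title. The conflict between titles and genotype tags bears on each of these values.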

How the results depend on the processing

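All 14 genes that passed the LPS test kept their call with DESeq2 size factors, limma-voom, no filter, a mean of at least 1 CPM and treatment alone, and 0 reversed under any alternative run. The DESeq2 test lost Kat14, library totals lost Brd2, Chd1, Chd7, Hdac1 and Setd1b, and leaving out the LPS library titled WT lost Chd7. The counts of genes that rose and fell, 6 and 8, became 1 and 39 with library totals, 11 and 19 with no filter and 12 and 27 with treatment alone, and leaving out 1 library at a time, with treatment alone in the model, gave 6 to 10 and 10 to 15. In the WT title, the 6 higher and 12 lower genes became 1 and 38 with library totals, 31 were lower at 1.5-fold and 5 were lower on log2(FPKM + 1). In the KO title, the 7 and 17 became 2 and 38 with library totals and 13 and 34 at 1.5-fold, and 6 were lower on log2(FPKM + 1). Between titles, 2 genes were higher in KO untreated, and 5 higher and 7 lower in KO after LPS, at 1.5-fold, and Kat6b was not called on log2(FPKM + 1), which left 0. The responses called larger in the KO title, 2, became 4 with library totals and 1 on log2(FPKM + 1), where those called smaller, 4, became 0. That scale damps genes of low FPKM by its pseudocount of 1. The causes of the other shifts were not tested. No paired analysis was possible because each group held 1 library and the labels give no replicate numbers. Genes near 3 counts, such as Hdac11 after LPS, are limited by depth.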
